A study of Mus musculus with 6 samples.

Results

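Carbonic anhydrase 3, encoded by *Car3*, and 9 genes of the fat cell were followed in tail tendons of WT and *Mkx*-/- mice: *Adipoq*, *Fabp4*, *Plin1*, *Cfd*, *Pparg*, *Cebpa*, *Lpl*, *Retn* and *Scd1*. These 10 of the 44788 gene symbols in the table were chosen by name, with *Car3* chosen because it is higher in the knockout. The genotype difference of *Car3* is therefore given as a description, with no p, and so are those of the other 9 genes. Bulk RNA-seq was performed on 3 tail tendon samples of WT and 3 of *Mkx*-/- mice of the C57BL/6 strain, all untreated as far as the labels say and 3 weeks old by the labels, although the study's text gives a different age. Mohawk, the product of *Mkx*, is a tendon transcription factor, and loss of it leads to heterotopic ossification of tendons in mice. The line carries the loss in the whole animal rather than in tendon alone, and the sources used here do not say which part of *Mkx* is removed.

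White adipocytes store triglyceride in a large lipid droplet and secrete hormones called adipokines. Their differentiation is driven by the nuclear receptor PPARγ together with the C/EBP transcription factors, which turn on genes for fatty acid uptake, lipid synthesis and droplet coating. Carbonic anhydrases interconvert carbon dioxide and bicarbonate. Carbonic anhydrase 3 has a low catalytic rate and is one of the most abundant proteins of both the mouse adipocyte and slow-twitch skeletal muscle, so a *Car3* transcript by itself does not name its cell of origin.

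Promoter sequences of the adipocyte genes are shown because the C/EBP factors and PPARγ act on genes of this kind. Sequences of the 250 bases before the start site were found for 6 of the 10 genes in RefSeq (build GRCm38.p6, a later build than the mm9 of the counts). These were *Adipoq*, *Cebpa*, *Cfd*, *Plin1*, *Pparg* with 3 start sites, and *Retn*. The promoters of *Cebpa* (chr7:35119043-35119292, plus strand) and *Plin1* (chr7:79732777-79733026, minus strand) carried matches to letters that a TATA box and a C/EBP site share, and these are set in capitals, 5′ to 3′.

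Cebpa: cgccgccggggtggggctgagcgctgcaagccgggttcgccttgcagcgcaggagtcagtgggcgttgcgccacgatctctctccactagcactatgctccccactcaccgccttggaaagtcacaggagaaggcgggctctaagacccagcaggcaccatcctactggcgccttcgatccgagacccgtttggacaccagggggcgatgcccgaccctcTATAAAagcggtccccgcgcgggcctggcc

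Plin1: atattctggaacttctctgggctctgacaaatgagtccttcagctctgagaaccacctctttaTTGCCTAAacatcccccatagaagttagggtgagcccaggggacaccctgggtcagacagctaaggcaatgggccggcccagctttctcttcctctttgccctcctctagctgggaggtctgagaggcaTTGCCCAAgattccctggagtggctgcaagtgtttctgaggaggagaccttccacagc

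In *Cebpa* the letters TATAAA began 30 bases before the start site, at -30, and 12.4% of the 32851 promoter windows in the table held them on either strand. In *Plin1* the C/EBP letters TTGCNNAA occurred at -187 and -58, and 9.56% of all windows held at least 1 such match on either strand. *Pparg* also carried C/EBP letters, at -215 and -16 of 1 start site. The nuclear receptor letters AGGTCA, held by 14% of all windows, occurred in 2 of the 8 windows of these genes, both of *Pparg*. The PPARγ type of site, in which AGGTCA is repeated in the same direction 1 base apart and which therefore overlaps the single AGGTCA, was found in 0 of the 8 windows and in 0.0335% of all windows. The letters of a sterol response element, TCACNCCAC, were found in 0 of the 8 windows and 1.05% of all, and CAGCTG, the E-box letters of muscle regulators, were found in *Adipoq* at -61 and in 13.0% of all. These matches describe letters only.

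Each library held between 10835070 and 14160301 counts. Counts were expressed as CPM, the reads of a gene at a fixed library total, after scaling by the trimmed mean of M-values (TMM), and edgeR's quasi-likelihood test with Benjamini-Hochberg adjustment compared the genotypes in the 14550 genes with enough counts. A gene was called at an adjusted p below 0.05 and a log2 fold change beyond 1 in size, which 275 genes passed upwards and 193 downwards. Without a scaling factor 711 were called upwards and 154 downwards, and the median log2 fold change of all genes moved from -0.0037 to 0.25. *Mkx* itself was counted 1825, 1381 and 1685 times in WT and 620, 589 and 491 times in *Mkx*-/- libraries (log2 fold change -1.60, SE 0.16, adjusted p = 0.0018). The 9 tendon markers, such as *Tnmd*, *Scx* and *Col1a1*, summed to at least 241624 CPM in every library. None of them was at 0, but the same held for the markers of fast muscle, endothelium and macrophages. WT replicate 3 was the single male library by *Xist* and *Ddx3y*, and WT replicate 1 differed from the other WT libraries in *Angptl4* and haemoglobin reads. Values without these libraries are given where they matter.

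*Car3* was higher in every *Mkx*-/- library than in any WT library. It was counted 134, 28 and 53 times in WT replicates 1 to 3, and 241, 824 and 369 times in *Mkx*-/- replicates 1 to 3. After scaling these were 10.6, 2.75 and 4.25 CPM in WT against 22.1, 57.9 and 29.3 CPM in *Mkx*-/- tendons. The WT library with the highest value, replicate 1, still lay below the lowest *Mkx*-/- library, also replicate 1. The means were 5.85 ± 4.14 CPM in WT against 36.4 ± 19.0 CPM in *Mkx*-/- (SD, n = 3 each), a fitted difference of 2.62 on the log2 scale (SE 0.51), or 6.15-fold. *Mkx*-/- replicate 2 carried the largest share of this difference: without it the log2 difference was 2.12, and without WT replicate 1 it was 3.36. It was 2.42 without the male library. In a bulk sample, more cells that make a transcript and more transcript per cell cannot be told apart.

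Per kilobase of exon, *Car3* stood at 3.88 ± 2.75 RPKM (reads per kilobase of exon, scaled to library size as for CPM, SD, n = 3) in WT, above 49.6% of the 12870 tested genes with a known length, and at 24.2 ± 12.6 RPKM in *Mkx*-/- tendons, above 90.0% of them. *Car3* (ENSMUSG00000027559.4) lies on the plus strand of chromosome 3 at 14863538 to 14872351 in mm9 and overlaps no other annotated gene. It shares none of its 50-base sequences with a protein-coding transcript of another gene, the only kind searched. The nearest genes are carbonic anhydrases too. *Car2*, the fast cytosolic enzyme, starts 14075 bases away and was counted 6, 7 and 18 times in WT and 5, 8 and 2 times in *Mkx*-/- libraries. *Car1*, the red cell enzyme, 85079 bases away, had between 0 and 3 counts in each library. Neither neighbour of *Car3* had enough counts to be tested.

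**Figure D1:**
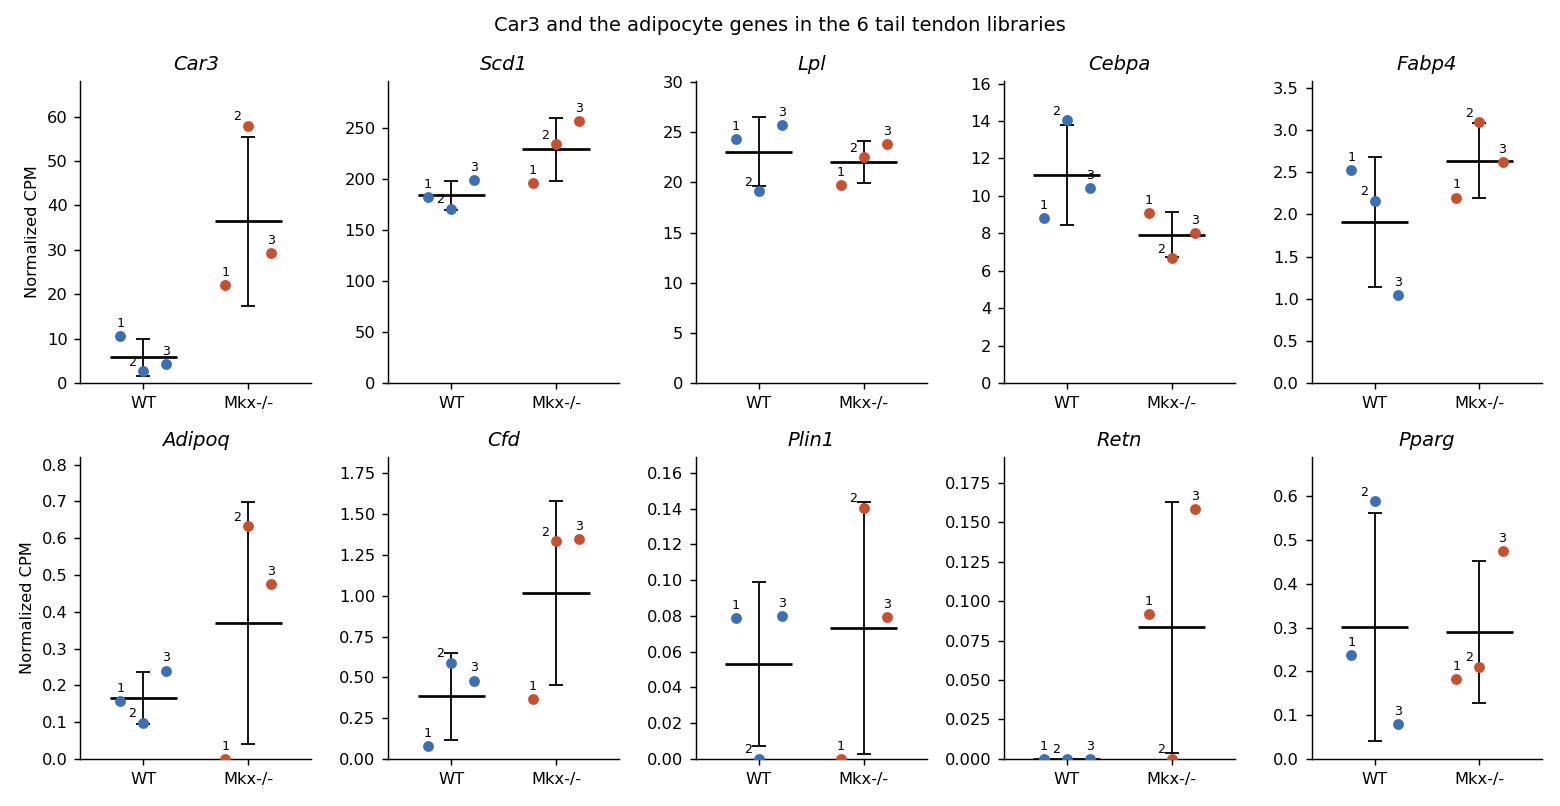
Normalized CPM of *Car3* and the 9 adipocyte genes, 1 panel each with its own axis from 0; blue points are WT and red points *Mkx*-/- libraries with their replicate number, the wide bar is the mean and the thin bar the SD of 3 libraries. The 3 *Mkx*-/- libraries lie above all WT libraries for *Car3*, at 22.1 to 57.9 against 2.75 to 10.6 CPM, and the groups overlap in the other 9 panels.

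Secreted products of the adipocyte were close to the limit of detection. Adiponectin, encoded by *Adipoq* and the most abundant adipokine in blood, had 2, 1 and 3 counts in WT and 0, 9 and 6 counts in *Mkx*-/- libraries. Adipsin, the complement factor D encoded by *Cfd*, had 1, 6 and 6 counts in WT and 4, 19 and 17 counts in *Mkx*-/- libraries. Resistin, encoded by *Retn*, had 0 counts in all WT libraries and 1, 0 and 2 counts in *Mkx*-/- libraries, all of which lie at or under the 3 counts that an observed 0 allows. *Mkx*-/- replicates 2 and 3 had the most reads of *Adipoq* and *Cfd*, while *Mkx*-/- replicate 1 lay within or below the WT range for both. None of these 3 genes passed the filter on low counts.

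The lipid droplet coat was as faint. Perilipin 1, encoded by *Plin1*, which covers the droplet of white adipocytes and gates lipolysis, had 1, 0 and 1 counts in WT and 0, 2 and 1 counts in *Mkx*-/- libraries. Summed over *Adipoq*, *Plin1*, *Cfd* and *Retn*, the WT libraries held 4, 7 and 10 counts and the *Mkx*-/- libraries 5, 30 and 26. These sums correspond to 0.315, 0.687 and 0.801 CPM in WT against 0.458, 2.11 and 2.06 CPM in *Mkx*-/- tendons, with means of 0.601 ± 0.254 and 1.54 ± 0.939 CPM (SD, n = 3). The groups overlapped, since *Mkx*-/- replicate 1 fell below WT replicates 2 and 3. Its exact Poisson 95% interval, 0.149 to 1.07 CPM, did not meet that of *Mkx*-/- replicate 2, 1.42 to 3.01 CPM. These intervals cover counting error only. *Cfd* alone supplied 1, 6 and 6 of the summed WT counts and 4, 19 and 17 of the summed *Mkx*-/- counts. Whether the *Cfd* reads came from fat cells was not tested.

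The regulators of fat cell differentiation were split by level. *Pparg*, the master receptor of adipogenesis, had 3, 6 and 1 counts in WT and 2, 3 and 6 counts in *Mkx*-/- libraries, too few to be tested. Its mean of 0.302 ± 0.261 CPM in WT lay beside 0.290 ± 0.161 CPM in *Mkx*-/- tendons. *Cebpa*, which encodes the C/EBPα factor that sustains *Pparg* in fat cells and is also used in myeloid cells and liver, was counted 112, 143 and 130 times in WT and 99, 95 and 101 times in *Mkx*-/- libraries. This was 8.82, 14 and 10.4 CPM against 9.07, 6.67 and 8.01 CPM. *Mkx*-/- replicate 1 lay above WT replicate 1, so the groups overlapped, and the log2 difference was -0.49 (SE 0.21). It kept its sign under all 15 alternative settings, from -0.63 to -0.22. The macrophage markers, which belong to cells that also use *Cebpa*, were lower in *Mkx*-/- tendons in 10 of 10 genes, with a summed level of 599 to 653 CPM in WT and 382 to 475 CPM in *Mkx*-/- libraries. Their part in the *Cebpa* values was not tested.

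*Lpl* and *Fabp4*, which handle fatty acids, had overlapping values in the genotypes. *Lpl*, the lipoprotein lipase that frees fatty acids from circulating triglyceride and is also made by muscle and macrophages, stood at 24.3, 19.1 and 25.7 CPM in WT against 19.7, 22.5 and 23.9 CPM in *Mkx*-/- tendons. The ranges overlapped and the log2 difference was -0.07 (SE 0.15), with a sign that turned to 0.19 without a scaling factor and to 0.0031 without the male library. *Fabp4*, the adipocyte fatty acid-binding protein, which capillary endothelium and macrophages also express, had 32, 22 and 13 counts in WT and 24, 44 and 33 counts in *Mkx*-/- libraries. Its means were 1.91 ± 0.771 and 2.64 ± 0.447 CPM (SD, n = 3), with a log2 difference of 0.47 (SE 0.36) and overlapping groups. The markers of endothelium were higher in 12 of 14 genes, with sums of 99.2 to 127 CPM in WT and 177 to 228 CPM in *Mkx*-/- libraries. Their part in the *Fabp4* values was not tested either.

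*Scd1* encodes the stearoyl-CoA desaturase that makes monounsaturated fatty acids, and is strong in fat and in sebaceous glands. It had the most counts of the 10 genes, with 182, 171 and 200 CPM in WT against 196, 234 and 257 CPM in *Mkx*-/- tendons. The lowest *Mkx*-/- library lay below the highest WT library, and the log2 difference was 0.31 (SE 0.14). Without a scaling factor it was 0.58. Of its 50-base sequences 4.66% also occur in *Scd2*, *Scd3* or *Scd4*, so a small share of reads may have been counted for a paralog. The 11 markers of epidermis and sebaceous gland, a tissue that can stay on a stripped tail tendon, summed to 8.11, 18.0 and 13.6 CPM in WT against 30.7, 24.3 and 30.5 CPM in *Mkx*-/- libraries without overlap. None of the 6 that could be tested passed the test. *Krt5* (1.16 ± 1.42 CPM in WT and 6.13 ± 0.757 in *Mkx*-/-) and *Krt15* (0.785 ± 1.36 and 5.03 ± 1.81) were higher. *Soat1* was not (4.49 ± 0.436 and 4.22 ± 0.717). *Awat2*, *Mc5r* and *Krt79* had at most 8 counts in any library. The sum therefore does not single out the sebaceous gland, whose part in the *Scd1* values was not tested.

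Ordered per kilobase in WT, *Scd1* came first at 38.1 ± 2.98 RPKM, and *Cebpa* at 4.21 ± 1.01, *Car3* at 3.88 ± 2.75, *Lpl* at 3.38 ± 0.507 and *Fabp4* at 2.99 ± 1.21 RPKM (SD, n = 3) followed without differing beyond their spread. Well below them lay *Cfd* at 0.415, *Pparg* at 0.152, *Adipoq* at 0.120 and *Plin1* at 0.0276 RPKM, with *Retn* at 0. In *Mkx*-/- tendons *Scd1* at 47.4 ± 6.38 RPKM was again first and *Car3* at 24.2 ± 12.6 RPKM second, above *Fabp4* at 4.14 ± 0.701, *Lpl* at 3.23 ± 0.312 and *Cebpa* at 3.01 ± 0.455 RPKM. The remaining genes stayed between 0.0382 RPKM for *Plin1* and 1.10 RPKM for *Cfd*. On mm9, *Scd1* lies on the minus strand of chromosome 19 at 44468941 to 44482199 and *Lpl* on the plus strand of chromosome 8 at 71404390 to 71431347. *Fabp4* shares chromosome 3 with *Car3* but lies on its minus strand at 10204347 to 10208576, and *Cebpa* lies on the plus strand of chromosome 7 at 35904312 to 35906945. None of the 10 genes overlaps another annotated gene. *Pparg*, *Adipoq*, *Plin1* and *Retn* stood above at most 3.21% of tested genes in either genotype.

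Of the 10 genes, 5 passed the filter on low counts, which favours genes that are high in at least 1 group. Groups did not overlap for 1 of these 5, *Car3*, beside 28.2% of all tested genes. Since *Car3* was picked for this contrast, nothing is read from that count. The other 4, *Cebpa*, *Lpl*, *Scd1* and *Fabp4*, overlapped between the genotypes and had log2 differences from -0.49 to 0.47.

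*Car3* was next set beside the markers of other cell types, because skeletal muscle also makes the enzyme. The 13 genes of fast skeletal muscle, such as *Acta1* and *Tnnt3*, summed to 437, 102 and 297 CPM in WT against 3168, 1504 and 598 CPM in *Mkx*-/- libraries, and 12 of 13 were higher in *Mkx*-/- tendons with 3 called. That count ranged from 0 to 10 when 1 library was left out. The 11 genes of slow muscle summed to 141, 114 and 121 CPM in WT against 123, 138 and 168 CPM in *Mkx*-/- libraries, but most of this was *Atp2a2*, a calcium pump that non-muscle cells also use (log2 fold change -0.07, SE 0.13). The other 10 slow muscle genes, a split made after the values were seen, summed to 8.35, 4.42 and 7.13 CPM in WT and to 19.5, 25.4 and 46.3 CPM in *Mkx*-/- libraries, without overlap. Of the 8 slow muscle genes tested, 7 were higher, 5 of them without overlap, with a median log2 difference of 1.88. Over all tested genes, 1.89% were called higher and 14.6% were higher without overlap. *Tnni1*, slow troponin I, rose by a log2 fold change of 2.23 (SE 0.51, adjusted p = 0.0440) and *Myoz2*, a sarcomere protein, by 2.34 (SE 0.54, adjusted p = 0.0460). Like most of the slow muscle genes tested, both passed the filter on low counts only through the *Mkx*-/- group, where they are high. The number of higher genes and the median of this list are therefore not read as a result. The number of slow muscle genes called was 0 to 2 when 1 library was left out. *Mb*, which encodes the oxygen store myoglobin of red muscle, stood at 4.10, 0 and 1.36 CPM in WT against 8.98, 15.7 and 6.34 CPM in *Mkx*-/- libraries (log2 fold change 2.45, SE 0.76, adjusted p = 0.101). Both muscle lists thus had members at higher levels in the *Mkx*-/- libraries.

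Within the *Mkx*-/- group the order differed between *Car3* and fast muscle. *Mkx*-/- replicate 1 had the most fast muscle signal and the least *Car3*, and *Mkx*-/- replicate 2 had the most *Car3*. Per 1000 CPM of fast muscle markers, *Car3* amounted to 24.2, 26.8 and 14.3 CPM in WT against 6.97, 38.5 and 49.0 CPM in *Mkx*-/- libraries. The sum of *Adipoq*, *Plin1*, *Cfd* and *Retn* was likewise lowest in *Mkx*-/- replicate 1 within its group, but in WT it was lowest in replicate 1, where *Car3* was highest. Slow muscle signal without *Atp2a2* was lowest in *Mkx*-/- replicate 1 as well, but highest in *Mkx*-/- replicate 3. Within WT both the fast and the slow muscle sums had the same order of libraries as *Car3*. How much of the *Car3* signal came from muscle, fat or tendon cells was not tested.

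**Figure D2:**
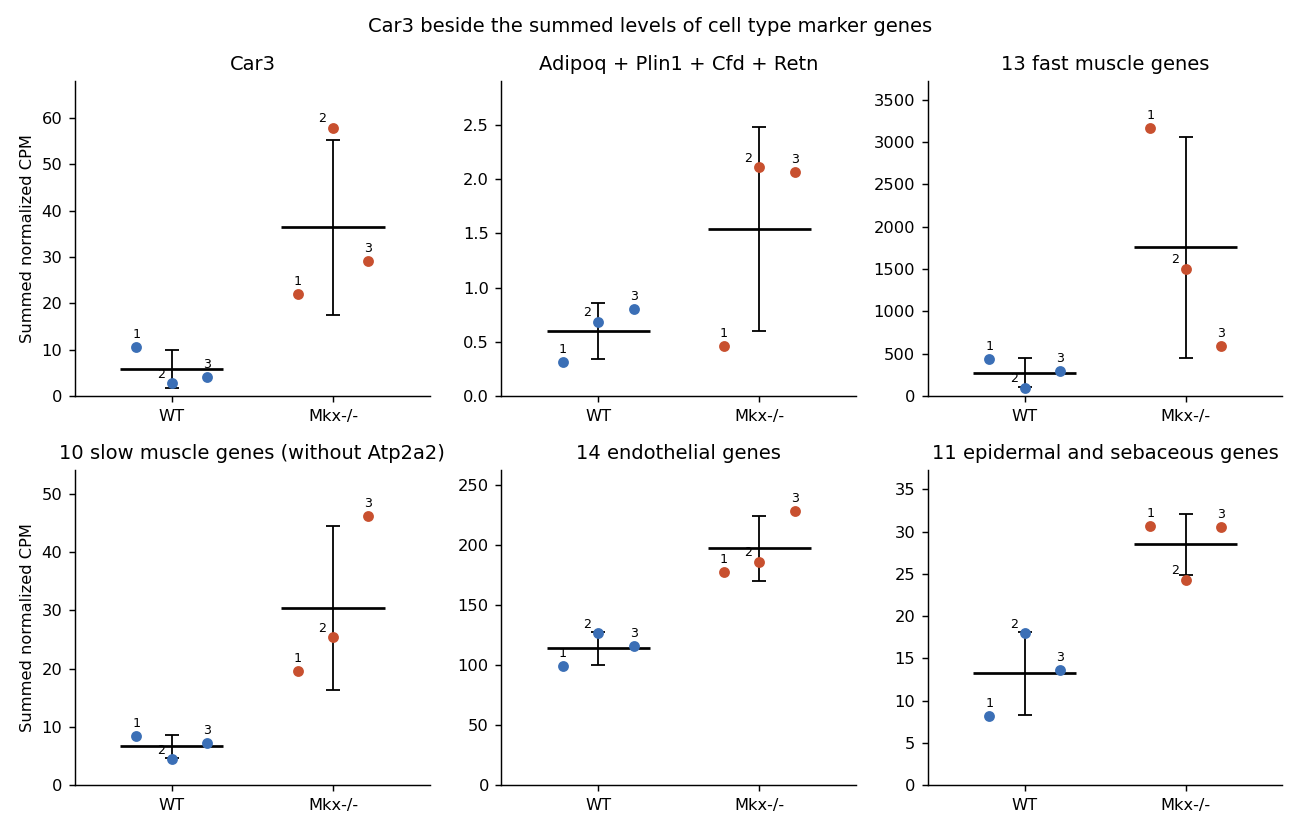
Normalized CPM of *Car3* and summed normalized CPM of 5 sets of marker genes, slow muscle without *Atp2a2*, 1 panel each with its own axis from 0; blue points are WT and red points *Mkx*-/- libraries with their replicate number, the wide bar is the mean and the thin bar the SD of 3 libraries. Fast muscle is highest in *Mkx*-/- replicate 1 at 3168 CPM, where *Car3* is lowest of its group at 22.1 CPM.

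As a further check of fat in the samples, 7 adipocyte markers were read together: *Adipoq*, *Plin1*, *Cfd*, *Retn*, *Cidec*, *Lep* and *Plin4*. Between 1 and 3 of the 7 were at 0 in each WT library and between 1 and 4 in each *Mkx*-/- library. Their sum was 6.77 to 10.9 CPM in WT and 18.7 to 27.5 CPM in *Mkx*-/- libraries, most of it from *Plin4* alone. *Lep* went the other way, with 10, 5 and 11 counts in WT and 0 in all *Mkx*-/- libraries. *Cidec*, a protein that fuses lipid droplets in white fat, had 1, 0 and 0 counts in WT and 0, 2 and 2 in *Mkx*-/- libraries. *Ucp1*, the uncoupling protein of brown fat, was at 0 in all libraries. Apart from *Plin4*, none of the 7 markers exceeded 19 counts in any library.

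Other genes of adipose biology and the carbonic anhydrases other than *Car3* were read from 8 lists with 118 genes, of which 94 could be tested. The carbonic anhydrase list gave 15 of the 118 genes, 8 of the 94 tested and 1 of the 2 that fell. In all, 4 rose and 2 fell, or 6.38% called, beside 3.22% over all tested genes, of which 1.89% were called higher and 1.33% lower. The count of those that rose was 14 and of those that fell 2 without a scaling factor, and 1 rose when WT replicate 2 or WT replicate 3 was left out. Of the 94 genes, 55 lay above and 39 below their WT level, with a median log2 difference of 0.10 that ranged from 0.06 without WT replicate 3 to 0.18 without WT replicate 1 and was 0.35 without a scaling factor. Groups did not overlap for 26 higher and 13 lower genes, beside 14.6% higher and 13.6% lower over all tested genes.

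Of 11 tested genes of the lipid droplet and lipolysis, 2 rose and 9 were not called, beside 1.89% called higher over all tested genes. Their median of -0.01 ranged from -0.08 without *Mkx*-/- replicate 2 to 0.03 without *Mkx*-/- replicate 1 and was 0.26 without a scaling factor. *Plin4*, a droplet coat protein of adipocytes and of skeletal muscle, was at 9.69, 5.59 and 5.77 CPM in WT and rose to 18.7, 25.2 and 16.5 CPM in *Mkx*-/- tendons. Its log2 fold change was 1.52 (SE 0.25, adjusted p = 0.0159 by edgeR), and the call was lost without WT replicate 2 (adjusted p = 0.0736), WT replicate 3 (0.0722) or *Mkx*-/- replicate 2 (0.0508). *Fitm1*, a fat storage protein found mainly in skeletal muscle and heart, had 1, 3 and 0 counts in WT and rose to 18, 12 and 17 counts in *Mkx*-/- libraries (log2 fold change 3.36, SE 0.72, adjusted p = 0.0369). That call was lost whichever library was left out, and the gene passed the filter only through the *Mkx*-/- group. The lipases of the droplet were not called: *Pnpla2* was at 71.2 ± 43.1 CPM in WT against 55.7 ± 13.4 CPM in *Mkx*-/-, and *Mgll* at 75.8 ± 4.47 and 71.0 ± 14.8 CPM (SD, n = 3).

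The 19 tested genes of lipogenesis and triglyceride synthesis had 1 that rose and 0 that fell, beside 1.89% called higher over all tested genes. Their median of 0.11 was 0.04 without *Mkx*-/- replicate 3, 0.19 without WT replicate 1 and 0.39 without a scaling factor. *Slc2a4* encodes GLUT4, the insulin-responsive glucose transporter of fat and skeletal muscle. It stood at 1.18, 1.08 and 1.28 CPM in WT against 5.40, 5.48 and 7.21 CPM in *Mkx*-/- libraries, tight in both groups. The log2 fold change was 2.34 (SE 0.24, adjusted p = 0.00216), and the gene was called in all 15 alternative settings, with an adjusted p of at most 0.0173. The enzymes of fatty acid synthesis were not called, with *Fasn*, the fatty acid synthase, at 163 ± 29.6 CPM in WT against 169 ± 43.2 CPM in *Mkx*-/- and *Acly*, the ATP citrate lyase, at 89.3 ± 5.19 and 100.3 ± 15.2 CPM. *Scd2*, the paralog of *Scd1* that lies 87587 bases from it, was at 424 ± 95.7 and 581 ± 179 CPM (log2 fold change 0.45, SE 0.25, adjusted p = 0.337).

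None of 9 genes of fatty acid uptake and transport was called in either direction. Their median of 0.12 was 0.03 without WT replicate 3, 0.26 without WT replicate 1 and 0.37 without a scaling factor. Groups did not overlap for 3 higher and 1 lower of them, beside 14.6% higher and 13.6% lower over all tested genes. None of 18 adipogenic transcription factors was called either, and their median of -0.08 was -0.18 without *Mkx*-/- replicate 2, 0.08 without WT replicate 1 and 0.17 without a scaling factor. *Angptl4*, an inhibitor of lipoprotein lipase that is induced by fasting, hypoxia and glucocorticoids, ranged from 34.7 to 335 CPM in WT, with the highest value in replicate 1, and from 31.3 to 137 CPM in *Mkx*-/- libraries. Of the transcription factors, *Stat5b*, which carries growth hormone signals, was at 54.2 ± 6.67 CPM in WT against 94.3 ± 7.75 CPM in *Mkx*-/- tendons. Its adjusted p was 0.0157, but the log2 fold change of 0.80 (SE 0.13) stayed under the threshold of 1. *Klf4* and *Rxra*, the partner receptor of PPARγ, differed by 0.17 (SE 0.13) and -0.06 (SE 0.14) on the log2 scale. The 7 tested genes of brown and beige fat also had none called, and *Prdm16*, a determinant of brown fat, was at 4.58 ± 1.18 CPM in WT against 6.22 ± 2.74 CPM in *Mkx*-/- tendons.

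Among 11 tested adipokines and receptors 0 rose and 1 fell, beside 1.33% called lower over all tested genes. By DESeq2, 2 rose and 2 fell. The median of 0.44 dropped to 0.10 without *Mkx*-/- replicate 2 and was 0.70 without a scaling factor. *Lepr*, the receptor of the fat hormone leptin, which skeletal stromal cells also carry, fell from 22.5, 9.23 and 11.9 CPM in WT to 2.02, 1.62 and 2.93 CPM in *Mkx*-/- tendons. The log2 fold change was -2.74 (SE 0.38, adjusted p = 0.0071), and it was called in all 15 alternative settings, with an adjusted p of at most 0.0324. *Lep*, the leptin gene, had 10, 5 and 11 counts in WT and 0 in all *Mkx*-/- libraries. It was at least 2.99-fold lower against a floor of 3 counts per library, had too few counts to be tested, and was picked out after its values were seen. The receptors of adiponectin were not called, with *Adipor1* at 117 ± 3.45 CPM in WT against 127 ± 3.06 CPM in *Mkx*-/- (log2 fold change 0.11, SE 0.11) and *Adipor2* at 77.9 ± 2.69 and 83.4 ± 1.35 CPM (0.10, SE 0.10). *Cdh13*, a cell surface binder of adiponectin that is also found on endothelium, had an adjusted p of 0.0431 at a log2 fold change of 0.76 (SE 0.17), under the threshold on size.

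The 11 genes of preadipocytes and adipose stroma had 1 that rose and 0 that fell, beside 1.89% called higher over all tested genes. Their median of 0.36 was 0.24 without WT replicate 3 and 0.61 without a scaling factor. *Icam1*, an adhesion molecule of activated endothelium and committed preadipocytes, rose from 1.89, 1.77 and 1.84 CPM in WT to 4.85, 3.93 and 4.60 CPM in *Mkx*-/- tendons (log2 fold change 1.27, SE 0.22, adjusted p = 0.0185). This call was lost without WT replicate 2 (adjusted p = 0.0716), WT replicate 3 (0.0749), *Mkx*-/- replicate 1 (0.0512) or *Mkx*-/- replicate 3 (0.0638). The most abundant genes of the list, *Pi16*, *Cd34* and *Pdgfrb*, are shared by fibroblasts, endothelium and pericytes and were not called. *Pi16* stood at 630 ± 150 CPM in WT against 811 ± 13.4 CPM in *Mkx*-/- tendons, and *Cd34* at 176 ± 22.3 and 226 ± 20.7 CPM.

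**Figure D3:**
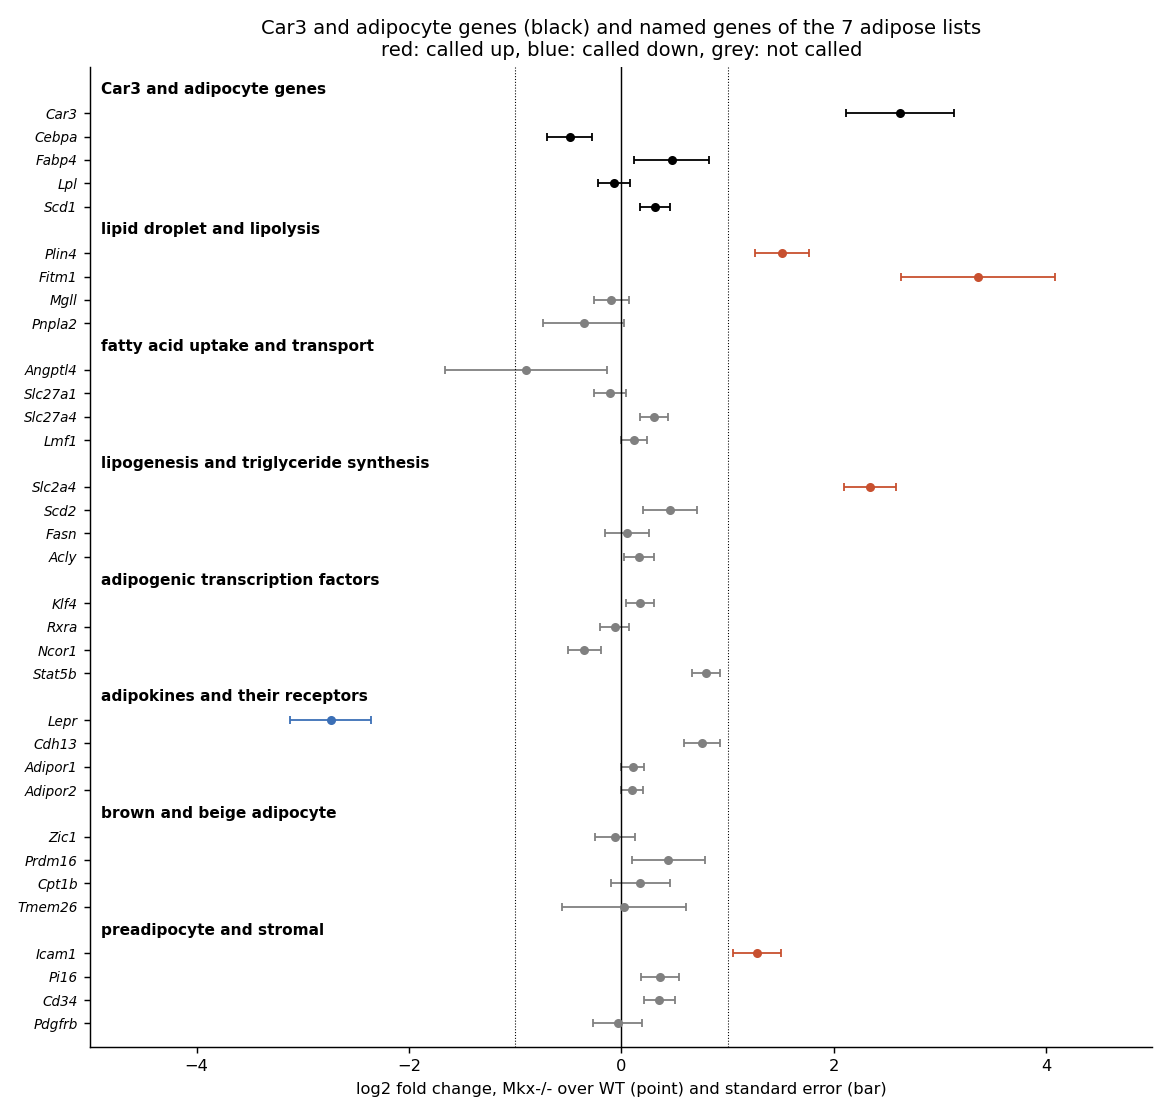
Log2 fold change of *Mkx*-/- over WT (points) with its SE (bars) for *Car3* and the 4 adipocyte genes with enough counts in black and for up to 4 genes of each of 7 adipose lists, red where called higher, blue where called lower and grey where not called; dotted lines mark a log2 fold change of 1 in either direction. Among the list genes, *Fitm1* at 3.36, *Slc2a4* at 2.34 and *Lepr* at -2.74 lie far beyond the dotted lines. The 4 adipogenic transcription factors drawn lie between the dotted lines.

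Relatives of *Car3* were read next. Of 15 other carbonic anhydrase genes 8 could be tested, 0 rose and 1 fell, beside 3.22% called over all tested genes. Their median log2 difference of -0.25 turned to 0.13 without *Mkx*-/- replicate 3 and to 0.0017 without a scaling factor. *Car12*, a membrane enzyme that faces the outside of the cell, had 60, 79 and 115 counts in WT and 5, 9 and 8 counts in *Mkx*-/- libraries. It fell from 7.23 ± 2.29 to 0.575 ± 0.101 CPM (SD, n = 3), a log2 fold change of -3.61 (SE 0.35, adjusted p = 0.00151), and was called in all 14 alternative settings that tested it. It passed the filter through the WT group, and was not tested with a filter of 10 counts in every library. *Car9*, another membrane enzyme and a known target of hypoxia signalling, stood at 42.7, 70.8 and 73.1 CPM in WT and 50.9, 25.5 and 36.4 CPM in *Mkx*-/- tendons. The groups overlapped (log2 fold change -0.73, SE 0.28, adjusted p = 0.169). *Car13*, a cytosolic enzyme, was at 0.706 ± 0.0172 CPM in WT against 1.82 ± 0.557 CPM in *Mkx*-/- without overlap (adjusted p = 0.0717). *Car13* passed the filter only through the *Mkx*-/- group, where it is high. *Car11* at 5.13 ± 1.19 and 8.14 ± 1.58 CPM (adjusted p = 0.135) and *Car14* at 5.11 ± 0.511 and 3.56 ± 0.431 CPM (adjusted p = 0.179) also did not overlap between WT and *Mkx*-/- and were not called. Over all tested genes, 28.2% did not overlap in either direction. *Car5b*, *Car8* and *Car15* overlapped, with log2 differences between -0.49 and 0.21.

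**Figure D4:**
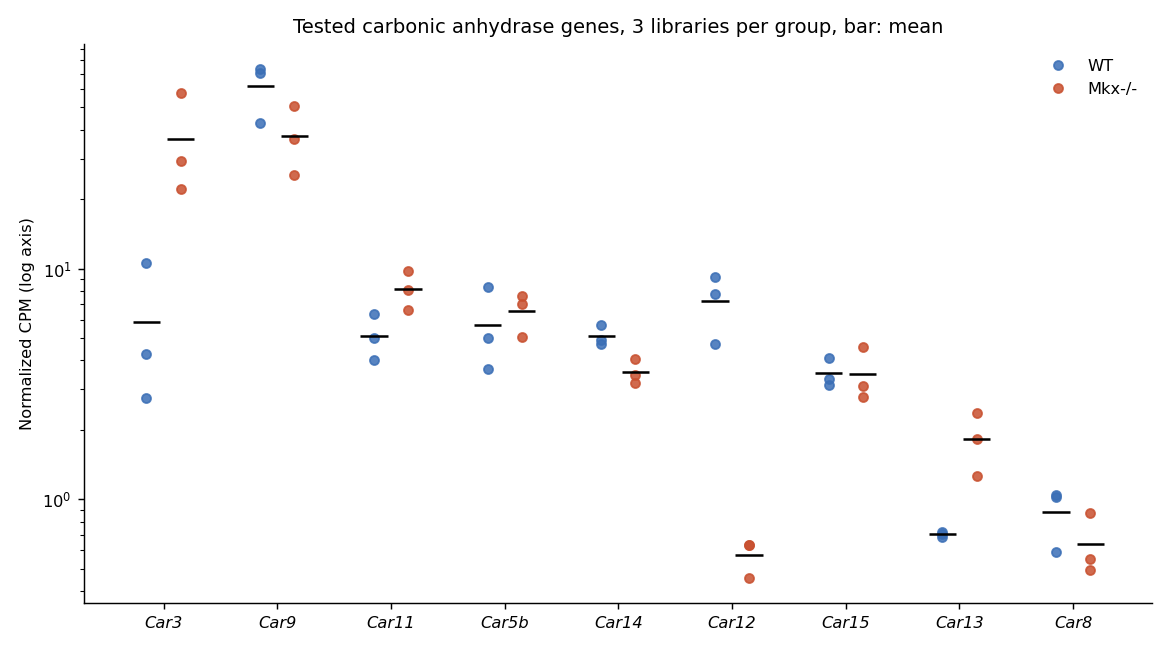
Normalized CPM on a log axis of *Car3* and the 8 other tested carbonic anhydrase genes, with 3 WT (blue) and 3 *Mkx*-/- (red) libraries each and a bar at the mean. *Car3*, *Car11* and *Car13* are higher and *Car12* and *Car14* lower in all *Mkx*-/- libraries, *Car12* at 4.73 to 9.21 CPM in WT and 0.458 to 0.634 CPM in *Mkx*-/-. Over all tested genes, 28.2% did not overlap in either direction.

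Fatty acid-binding proteins were also read as neighbours and relatives of *Fabp4*. *Pmp2*, the myelin paralog 20462 bases from *Fabp4*, had 295, 198 and 345 counts in WT and 185, 762 and 1145 counts in *Mkx*-/- libraries. The groups overlapped because of *Mkx*-/- replicate 1 (log2 fold change 1.20, SE 0.49, adjusted p = 0.191). *Fabp5*, the epidermal form, stood at 2.12 ± 0.937 CPM in WT against 4.12 ± 1.65 CPM in *Mkx*-/- (adjusted p = 0.204). *Fabp3*, the form of heart and skeletal muscle, had 1, 0 and 0 counts in WT and 5, 11 and 5 counts in *Mkx*-/- libraries and was not tested.

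The 5 profiles nearest to that of *Car3* over the 6 libraries, by root mean square distance of log2 CPM around each gene's mean among 10294 genes, were those of *Adh7* (distance 0.495), *Thbs1* (0.497), *Prelp* (0.498), *Padi2* (0.546) and *Adm* (0.584). Genes averaging under 5 CPM were not candidates, which leaves *Plin4* as the single adipocyte marker that could have been named. *Thbs1*, thrombospondin 1, followed the high value of WT replicate 1, with 1103, 248 and 251 CPM in WT, and peaked with *Car3* in *Mkx*-/- replicate 2 among 1689, 3005 and 1073 CPM. *Prelp*, a small leucine-rich proteoglycan of connective tissue, stood at 970, 593 and 408 CPM in WT against 3596, 4645 and 2783 CPM in *Mkx*-/- tendons. The profile of *Adipoq* was nearest to *Zdhhc2* (0.330), *Ppp1r16b* (0.333), *Spata13* (0.367), *Gpr116* (0.373) and *Rimklb* (0.379), though it rests on 0 to 9 counts per library. These distances describe 6 libraries and carry no test.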

How the data were processed

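RNA of tail tendons was sequenced on the Ion Proton system after preparation with the Ion Total RNA-Seq Kit v2. The authors trimmed adaptors, dropped reads of low quality, mapped the rest to mm9 with MapSplice 2.1.6 and deposited a table of raw counts, with 1 row for each gene symbol and no normalization. The counting program, its annotation and its use of strand are not given in the sources used here. Column names gave the sample of all 6 columns, and 0 were left unused. Of 44788 symbols, 19011 had 0 counts everywhere.

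From these counts, CPM and log2 fold changes were computed in R 4.3.3 with edgeR 4.0.16 (TMM, filterByExpr, quasi-likelihood fit on genotype alone, Benjamini-Hochberg adjustment over 14550 genes, prior count 0.125 for fold changes). DESeq2 1.42.0 was an alternative. The other alternatives were RLE, upper-quartile and no scaling, filters of 1 count in any and 10 counts in every library, a robust fit, removal of muscle markers, no fold threshold, a replicate block, and leaving out each library. The code was tested on simulated counts. The labels do not say that replicates are separate animals, and between replicates chi-square per degree of freedom was 7.995 to 39.25, well above counting noise. RPKM used exon lengths of the GENCODE annotation of mm9.

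The 10 genes and the gene lists were chosen with earlier results of these data known. Named from each list were at most 4 genes, called genes by smallest p first and then the highest mean CPM, every tested carbonic anhydrase, and the 5 nearest profiles of *Car3* and *Adipoq* among genes averaging 5 CPM or more. *Lep*, *Mb*, *Cidec*, *Ucp1*, *Fabp3*, *Fabp5*, *Scx*, *Awat2*, *Mc5r*, *Krt79* and the genomic neighbours were named after their values were seen. Genes within 100 kb counted as neighbours. The depth gives 1 count a value of 0.0703 to 0.0981 CPM, so genes such as *Adipoq* have a large counting error.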

Additional observations from a re-analysis of the deposited data

How the results depend on the processing

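The *Car3* difference stayed positive in all 15 alternative settings, between 2.12 and 3.36 on the log2 scale, and these ends came from leaving out *Mkx*-/- replicate 2 and WT replicate 1. *Fabp4* (0.16 to 0.74), *Cebpa* (-0.63 to -0.22) and *Scd1* (0.22 to 0.58) kept their sign in all 15, and *Lpl* in 13 of 15. Counts of called genes depended on the settings. The 275 genes called higher and 193 called lower became 711 higher without a scaling factor, 541 and 322 with a filter of 1 count in any library, and 463 and 329 without a fold threshold. Leaving out 1 library gave 103 to 321 higher and 112 to 248 lower. Of the genes in the 8 adipose and carbonic anhydrase lists, 4 were called higher and 2 lower. These were 7 and 4 with DESeq2, 14 higher without a scaling factor, 8 and 7 with a filter of 1 count in any library, 1 lower with a filter of 10 counts in every library, and 8 higher without a fold threshold. Leaving out 1 library gave 1 to 4 higher and 2 to 4 lower. The cause was not tested. Fits that left out 1 library compared 3 with 2.

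Replicate numbers were shared between the genotypes, but same-numbered libraries correlated at 0.0261, -0.21 and 0.297 in their deviations from the group means, so the numbers were not taken as pairs, and not every library correlated best with its own number. With the replicate number as a block, 195 genes were called higher and 136 lower, and *Car3* differed by 2.62 on the log2 scale. Of these genes, 3 and 2 belonged to the 8 adipose and carbonic anhydrase lists. *Fitm1* (adjusted p = 0.0910) and *Icam1* (0.0541) lost their calls under the block, and *Dlk1*, a preadipocyte factor named here after its values were seen, gained one (log2 fold change 1.38, adjusted p = 0.0289).

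Depth limits *Adipoq*, *Plin1*, *Retn*, *Pparg* and *Cfd*, which had at most 19 counts in any library, so differences in them were not detectable here unless large. With 3 libraries per group, 1 library can set a mean, and the smallest p of an exact two-sided permutation test on 1 gene is 0.1.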
